A study of Mus musculus with 4 samples.

Results

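The S100 proteins are small calcium-binding proteins of vertebrates, and 10 of their genes (S100a1, S100a3, S100a4, S100a6, S100a8, S100a10, S100a11, S100a13, S100a14 and S100a16) are described here across 4 groups of mouse embryonic fibroblasts. The genes were chosen by symbol, matched to the Ensembl identifiers of the deposited tables, and all 10 were found among the 27597 genes listed. The study compared cells that carried different sets of reprogramming factors. The fibroblasts, labelled strain OGXICR and age D13.5, came from skin whose epidermis had been taken off, were grown in serum and were infected with lentivirus inducible by doxycycline. OSKM cells received OCT4, SOX2, KLF4 and c-MYC. G3SKM cells received GATA3 in place of OCT4, with the same SOX2, KLF4 and c-MYC. SKM cells received SOX2, KLF4 and c-MYC, and the control cells an empty vector. A gene has 1 value in each group, made from 2 replicates together, which leaves no replicate spread to set differences against and allows no test. The sources used here do not give the vector's promoter beyond its inducibility, the day of harvest or the share of infected cells.

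An S100 protein has a pair of EF-hand loops, folds around calcium with its partner in a dimer, and then exposes a surface that grips other proteins. Annexins, cytoskeletal proteins and enzymes are among the targets inside the cell, and some S100 proteins leave the cell and bind receptors such as the product of Ager. Fibroblasts are known for high levels of S100a4, S100a6, S100a10 and S100a11, while S100a8 and S100a9 are known from neutrophils and monocytes and S100a14 from epithelia. Most S100 genes lie side by side in the epidermal differentiation complex, which is on chromosome 3 in the mouse.

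Read depth, worked out from the values and given in mega-reads (M), was 74.7 M in OSKM, 102 M in G3SKM, 54 M in SKM and 111 M in empty vector. Of the delivered factors, Sox2 was at 70.7 to 187 RPKM in the 3 groups that received it and at 0.260 RPKM in empty vector. Pou5f1, the gene of OCT4, was at 3.69 RPKM in OSKM against at most 0.297 RPKM elsewhere, and Gata3 at 0.571 RPKM in G3SKM against at most 0.0836 RPKM elsewhere. Klf4 was at 13.9 RPKM in OSKM, 8.55 in G3SKM and 19.3 in SKM, against 6.26 RPKM in empty vector. Myc was at 6.31 to 11.9 RPKM in the 3 groups that received c-MYC and at 15.96 RPKM in empty vector, so its level does not mark the delivery. Fibroblast genes were present in every group (Vim at 515 to 712 exon RPKM with the factors and 1386 exon RPKM in empty vector), as the cell label says. The SKM library stood apart in its relation to GC. Over genes, which are no independent replicates, log2 ratios followed transcript GC with a Spearman rho of -0.708 in OSKM against SKM, -0.715 in G3SKM against SKM and 0.496 in SKM against empty vector, but of 0.0595 in OSKM and -0.00167 in G3SKM against empty vector. The members themselves had a transcript GC of 44.2% to 56.1%. The comparisons of OSKM and G3SKM with empty vector therefore serve as the values without the SKM library, although their columns come from different tables. All 3 comparisons with empty vector share that group's values, and both comparisons with SKM share SKM.

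Deposited values are RPKM, reads per kilobase scaled to a depth of mega-reads, and divide by the whole gene from start to end with introns. They are used for a single gene across groups. Levels of different genes are compared only as exon RPKM, the same reads per kilobase of exon. Folds are ratios of RPKM, and brackets after them hold 95% Clopper-Pearson intervals on the reads, which hold counting error alone and are narrower than the true error for amplified cDNA. The rule of size calls a gene higher or lower where the log2 ratio of RPKM + 1 is 1 or more away from 0. It applies only to genes that reach 1 RPKM in either group. The added 1 RPKM makes these log2 ratios smaller than the true change of low genes.

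The 10 genes spanned a wide range of levels, and 4 of them held nearly all of the family's RNA. S100a6, S100a11, S100a4 and S100a10 stood at 193 to 1818 exon RPKM over the 4 groups, while no other member was above 23.2 exon RPKM in any group. Together the 4 made up 96.5% of the summed level of the members in OSKM, 96.1% in G3SKM, 95.6% in SKM and 98.8% in empty vector. S100a6 ranked 48th of 17767 protein-coding genes in OSKM, 42nd of 17873 in G3SKM, 78th of 18318 in SKM and 9th of 17551 in empty vector. S100a13, S100a16 and S100a1 formed a middle tier at 9.80 to 23.2 exon RPKM. S100a3 was at 0.539 to 1.75 exon RPKM and S100a8 at 0.0381 to 0.0811 exon RPKM. S100a14 was the 8th of 10 in each group with factors and the lowest in empty vector, and S100a6 was the highest in all 4 groups. Counting intervals of neighbours in the order overlapped for S100a1 and S100a13 in OSKM and in G3SKM, for S100a4 and S100a11 in G3SKM, for S100a1 and S100a16 in SKM and for S100a8 and S100a14 in empty vector.

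**Figure D1:**
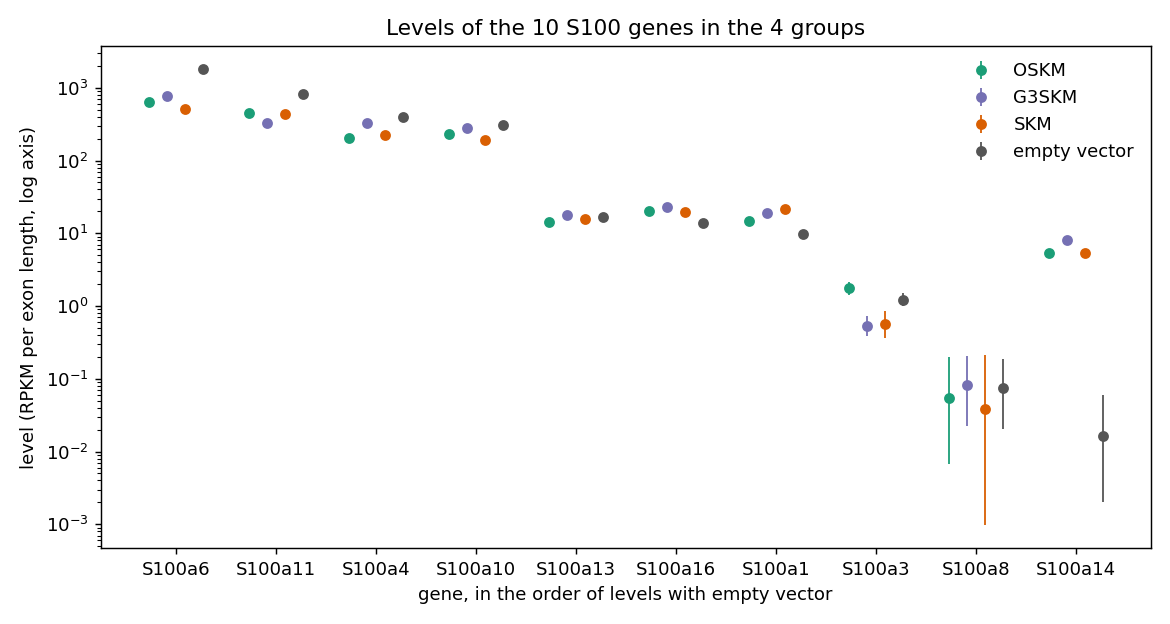
Level of each of the 10 S100 genes (exon RPKM, logarithmic axis) in OSKM, G3SKM, SKM and empty vector, with genes ordered by their level in empty vector; points are the 1 value per group and bars are 95% counting intervals. S100a6, S100a11, S100a4 and S100a10 lie at 193 exon RPKM or more in every group, and S100a14 is at 5.41 to 8.12 exon RPKM with the factors and at 0.0165 exon RPKM in empty vector.

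The summed level of the 10 members was 1590 exon RPKM in OSKM, 1771 in G3SKM, 1438 in SKM and 3383 in empty vector. It thus stood at 47.0% of the empty vector level in OSKM, 52.4% in G3SKM and 42.5% in SKM. S100a6 carried much of this difference, and without it the sums were 60.3%, 64.3% and 58.8% of that in empty vector, for OSKM, G3SKM and SKM in that order. Of the reads on the members, S100a6 held 47.6% (47.2 to 47.9) in OSKM, 49.7% (49.5 to 50.01) in G3SKM, 43.1% (42.7 to 43.6) in SKM and 62.0% (61.8 to 62.2) in empty vector.

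By the rule of size, few members were called. In OSKM against empty vector, S100a14 was higher and S100a6 lower, where 4.79% of all genes compared were called higher and 4.14% lower. In G3SKM against empty vector, S100a14 was higher and S100a6 and S100a11 lower, where 7.06% of genes were higher and 3.74% lower. In SKM against empty vector, S100a14 was higher and S100a6 lower, where 8.88% of genes were higher and 5.98% lower. No member passed the rule in OSKM against SKM, where 2.55% of genes were higher and 1.64% lower, nor in G3SKM against SKM, where 4.43% were higher and 1.1% lower. In each comparison 8 of the 10 members passed the filter on low values, and S100a3 and S100a8 did not. S100a14 passed it through the groups with factors alone. Counts of 1 or 2 of 8 are too few to be read against these shares, and nothing particular to the list is drawn from them. The median log2 ratio of those 8 was -0.26 in OSKM against empty vector, -0.04 in G3SKM and -0.35 in SKM, beside 0.18, 0.17 and 0.15 over all genes compared. Against SKM it was 0.02 in OSKM and 0.33 in G3SKM, beside -0.01 and -0.00. Without the GC trend, some small log2 ratios against SKM had the other sign. For OSKM, S100a13 was at 0.12 in place of -0.07, S100a11 at -0.05 in place of 0.05 and S100a14 at 0.14 in place of -0.00. For G3SKM, S100a1 was at 0.04 in place of -0.14.

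**Figure D2:**
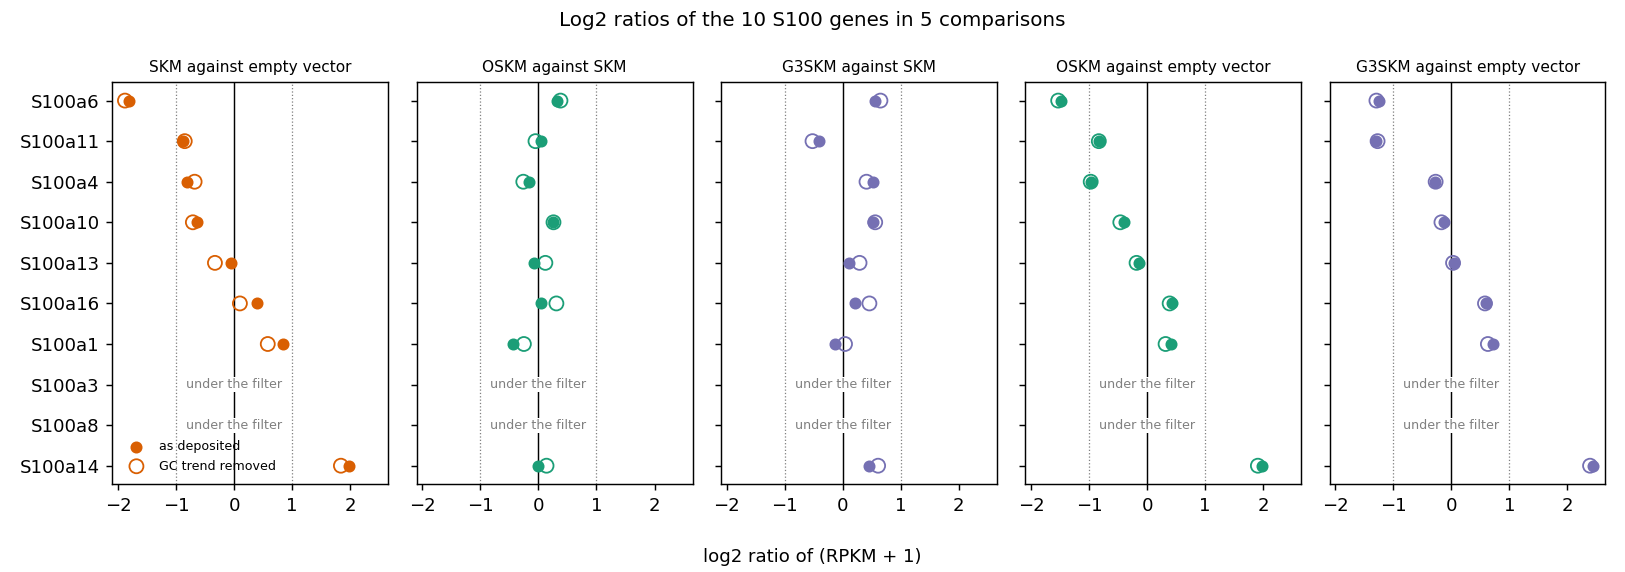
Log2 ratios of RPKM + 1 for the 10 S100 genes in the 5 comparisons, as deposited (filled) and after the trend with transcript GC was removed (open); dotted lines mark the rule of size at -1 and 1. S100a14 lies at 1.98 to 2.44 and S100a6 at -1.81 to -1.25 in the 3 panels against empty vector, and no member passes the dotted lines against SKM.

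S100a6 encodes calcyclin, a protein of proliferating cells and fibroblasts that binds annexins and the calcyclin-binding protein. It was at 344 RPKM in OSKM, 407 in G3SKM and 275 in SKM, against 968 RPKM in empty vector. All groups with factors were thus well below the control, and SKM was lowest. The level was 2.82-fold lower (2.79 to 2.85) in OSKM, 2.38-fold lower (2.35 to 2.40) in G3SKM and 3.51-fold lower (3.46 to 3.56) in SKM than in empty vector, with log2 ratios of -1.49, -1.25 and -1.81. Against SKM it was 1.25-fold higher (1.23 to 1.27) in OSKM and 1.48-fold higher (1.46 to 1.50) in G3SKM, both under the rule of size. Removal of the GC trend left the difference from empty vector at -1.53, -1.29 and -1.88 for OSKM, G3SKM and SKM.

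S100a11, whose protein binds annexin A1 at membranes, was at 39.9 RPKM in OSKM, 28.8 in G3SKM and 38.5 in SKM, against 71.7 RPKM in empty vector. Here G3SKM was lowest, and OSKM and SKM were close to each other. In G3SKM the level was 2.49-fold lower (2.45 to 2.54) than in empty vector, with a log2 ratio of -1.29. The other log2 ratios against empty vector, -0.83 in OSKM and -0.88 in SKM, were under the rule. Relative to the median of all genes in the comparison they were -1.01 and -1.03, past the rule. In G3SKM S100a11 was 1.34-fold lower (1.31 to 1.37) than in SKM, while S100a6, S100a4 and S100a10 were higher there than in SKM.

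S100a4, known as metastasin and as fibroblast-specific protein, binds the heavy chain of nonmuscle myosin encoded by Myh9. The gene was at 44.3 RPKM in OSKM, 71.8 in G3SKM and 49.8 in SKM, against 87.7 RPKM in empty vector. G3SKM lay nearest the control and OSKM farthest from it. In OSKM the level was 1.98-fold lower (1.93 to 2.03) than in empty vector, a log2 ratio of -0.97, which became -1.15 relative to the median of all genes. The corresponding log2 ratios were -0.28 in G3SKM and -0.81 in SKM, and G3SKM was 1.44-fold higher (1.40 to 1.49) than SKM.

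S100a10, or p11, is the family member that no longer binds calcium and holds annexin A2 in a complex at the cell surface. It was at 19.5 RPKM in OSKM, 23.7 in G3SKM and 16.2 in SKM, against 25.8 RPKM in empty vector. The differences from the control were small beside those of S100a6. The level was 1.32-fold lower (1.298 to 1.35) in OSKM, 1.09-fold lower (1.07 to 1.11) in G3SKM and 1.60-fold lower (1.56 to 1.64) in SKM, and none passed the rule.

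Lists of macrophage and fibroblast genes also summed lower than in empty vector in each group with factors. Of 12 macrophage genes, 8 passed the filter against empty vector and 7 of them were lower in each of OSKM, G3SKM and SKM, and the list summed to 6.62 exon RPKM in OSKM, 12.4 in G3SKM and 15.9 in SKM, against 133 exon RPKM in empty vector. None of the 12 was at 0 in any group. Most of the 8 reached the filter only in empty vector, which favours a call of lower. Lyz2, the lysozyme of macrophages, was at 0.276 RPKM in OSKM, 1.10 in G3SKM and 1.37 in SKM, against 16.4 RPKM in empty vector. Macrophages also express S100a4, S100a6, S100a10 and S100a11. Of the fibroblast genes past the filter, 8 of 16 were called lower than in empty vector in OSKM, 9 of 14 in G3SKM and 3 of 14 in SKM, and none was called higher. Some lay above the control without a call, among them the proteoglycan gene Dcn at 1.21 RPKM in OSKM, 0.548 in G3SKM and 0.446 in SKM, against 0.259 RPKM in empty vector. Without the GC trend the calls of Prrx1 and Postn in SKM ended (-0.87 and -0.61). The fibroblast list summed to 1699 exon RPKM in OSKM, 1641 in G3SKM and 2717 in SKM, against 3873 exon RPKM in empty vector, with no gene at 0. Among the groups with factors, both lists summed highest in SKM, where S100a6 and S100a10 were lowest. S100a4 was lowest in OSKM and S100a11 in G3SKM. Col1a1, a collagen gene of the fibroblast list, was called lower than in SKM in OSKM (-1.29) and G3SKM (-1.08). Both calls ended without the GC trend (-0.87 and -0.65). The part of either cell type in the lower S100 levels was not tested. In these bulk samples fewer cells of a type and less RNA per cell cannot be told apart.

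The sequences before the starts of S100a6, S100a11 and S100a4, the abundant members with the largest log2 differences from empty vector, are shown so that their letters can be compared. Each runs from 250 bases before the start to 30 after it on the plus strand of build GRCm38.p6, in RefSeq coordinates chr3:90612644-90612923 for S100a6, chr3:93520246-93520525 for S100a11 and chr3:90603520-90603799 for S100a4. Capitals mark every match to 8 short motifs.
S100a6: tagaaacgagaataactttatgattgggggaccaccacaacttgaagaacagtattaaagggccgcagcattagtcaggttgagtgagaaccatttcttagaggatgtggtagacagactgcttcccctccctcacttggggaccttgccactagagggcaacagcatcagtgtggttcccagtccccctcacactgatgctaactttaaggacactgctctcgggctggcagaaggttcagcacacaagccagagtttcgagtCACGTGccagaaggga
S100a11: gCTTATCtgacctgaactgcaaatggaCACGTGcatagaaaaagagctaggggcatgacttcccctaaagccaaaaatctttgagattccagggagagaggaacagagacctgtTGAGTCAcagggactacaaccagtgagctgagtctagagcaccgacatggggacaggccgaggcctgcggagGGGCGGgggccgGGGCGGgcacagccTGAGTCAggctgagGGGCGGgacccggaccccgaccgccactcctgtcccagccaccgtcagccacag
S100a4: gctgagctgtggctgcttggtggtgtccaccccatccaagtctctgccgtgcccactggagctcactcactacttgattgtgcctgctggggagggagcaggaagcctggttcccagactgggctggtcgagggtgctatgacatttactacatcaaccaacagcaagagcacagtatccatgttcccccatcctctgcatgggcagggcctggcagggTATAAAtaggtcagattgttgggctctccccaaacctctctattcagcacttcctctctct
The motifs were chosen after the values were seen and were searched on both strands of 300 bases per start, 250 before it and 50 after. The table holds 32851 promoters. TATAAA, the letters of a TATA box, stood in 13.6% of them. The E-box CACGTG stood in 7.15%, and the AP-1 letters TGANTCA in 7.81%. A GC box, written GGGCGG, was in 35.7%, and the CACC box CCACACCC in 3.56%. The octamer letters ATGCAAAT were in 1.74%. SOX factors are known to bind letters such as ACAANG, found in 41.2%, and GATA factors GATAAG, found in 7.44%. S100a6 had a single match, an E-box at base 15 of the transcript. S100a11 had an E-box, AP-1 letters at 136 and at 38 bases before the start, GC boxes at 64, 52 and 24 bases before it, and GATA letters on the minus strand. S100a4 had a TATA box 31 bases before the start. None of the matches shown overlapped another. The 3 promoters did not share 1 set of motifs, and a match is a description of letters and not of binding.

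S100a10 and S100a11 were set beside the annexins that their proteins bind. Anxa2 was at 392 exon RPKM in OSKM, 357 in G3SKM and 336 in SKM, against 663 exon RPKM in empty vector. The ratio of S100a10 to Anxa2 in exon RPKM was 0.593 (0.582 to 0.605) in OSKM, 0.792 (0.780 to 0.804) in G3SKM and 0.575 (0.561 to 0.589) in SKM, against 0.464 (0.458 to 0.471) in empty vector. S100a10 was therefore less reduced than its partner in all 3 groups with factors, most so in G3SKM. Anxa1 was at 242 exon RPKM in OSKM, 251 in G3SKM and 101 in SKM, against 549 exon RPKM in empty vector. The ratio of S100a11 to Anxa1 was 1.87 (1.83 to 1.90) in OSKM, 1.299 (1.28 to 1.32) in G3SKM and 4.31 (4.19 to 4.42) in SKM, against 1.48 (1.47 to 1.50) in empty vector. The ratio was highest in SKM, where Anxa1 was lowest. The log2 ratio of Anxa1 in SKM against empty vector was -2.33 as deposited and -1.86 without the GC trend in which SKM stood apart. OSKM and G3SKM lay on either side of the control.

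**Figure D3:**
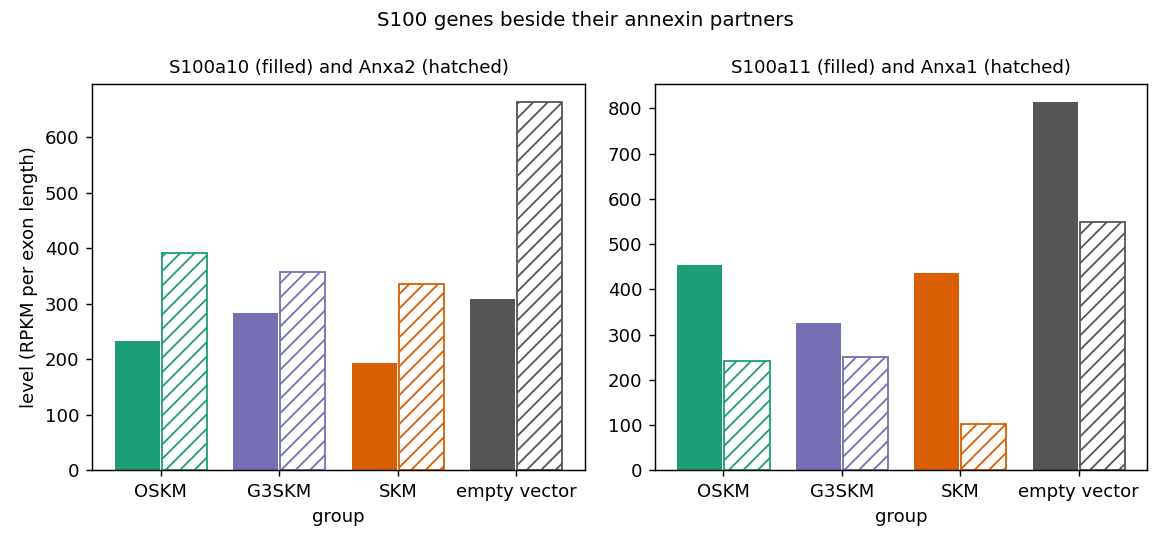
Levels (exon RPKM, from 0) of S100a10 beside Anxa2 and of S100a11 beside Anxa1 in OSKM, G3SKM, SKM and empty vector, 1 value per bar. Anxa2 is lower in every group with factors (336 to 392 exon RPKM, against 663 in empty vector) while S100a10 changes less, and Anxa1 is lowest in SKM at 101 exon RPKM.

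Across the 12 annexin genes, 8 passed the filter in each comparison. Anxa8 was called higher in all 3 comparisons with empty vector. Anxa1, which encodes an anti-inflammatory annexin, and Anxa3 were called lower in all 3, and Anxa5 in G3SKM and SKM. The median log2 ratio of the annexins was -0.64 in OSKM, -0.77 in G3SKM and -0.65 in SKM against empty vector. Against SKM, Anxa1 was the only annexin called, higher in OSKM at 26.2 RPKM and in G3SKM at 27.2 RPKM, against 10.97 RPKM in SKM, with log2 ratios of 1.18 and 1.23. Both calls ended without the GC trend, at 0.79 in OSKM and 0.81 in G3SKM. Anxa8 was at 4.13 RPKM in OSKM, 3.93 in G3SKM and 3.49 in SKM, against 0.747 RPKM in empty vector, so that it ran opposite to the other annexins named.

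Of 17 other known binding partners found among the listed genes, 10 passed the filter. Ezr, the gene of the membrane linker ezrin, was at 3.83 RPKM in OSKM and 4.29 RPKM in SKM, against 0.912 RPKM in empty vector, with log2 ratios of 1.34 and 1.47. In G3SKM it was at 2.68 RPKM, also above the control but not called. Cacybp, whose product is the calcyclin-binding protein that S100A6 grips, was at 20.9 RPKM in OSKM, against 8.04 RPKM in SKM and 9.48 RPKM in empty vector, and was called higher against both. The call against SKM ended without the GC trend (1.27 as deposited, 0.82 without it), and that against empty vector held (1.06 and 1.13). In G3SKM Cacybp was at 15.3 RPKM, above SKM and empty vector but not called against either. Thus in OSKM Cacybp was higher and S100a6 lower than in empty vector. Myh9, the myosin target of S100A4, was at 9.18 RPKM in OSKM and 8.24 RPKM in G3SKM, against 27.1 RPKM in empty vector, and was called lower in both. In SKM it was at 14.04 RPKM, also below the control but not called. In SKM Ppp5c, a phosphatase that S100 proteins bind, was called higher at 5.63 RPKM, against 2.20 RPKM in empty vector, a call that ended without the GC trend (1.05 as deposited, 0.77 without it). Ppp5c was above the control without a call at 4.71 RPKM in OSKM and 3.65 RPKM in G3SKM. Ahnak, a scaffold of the complex of S100A10 with annexin A2, was called lower in SKM at 3.83 RPKM, against 12.4 RPKM in empty vector. It was below the control without a call at 6.04 RPKM in OSKM and 5.80 RPKM in G3SKM. The list's median log2 ratio was -0.16 in OSKM, -0.18 in G3SKM and -0.14 in SKM against empty vector, and no partner was called in G3SKM against SKM.

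Of 14 genes for receptors of extracellular S100 proteins, 6 passed the filter, and Mcam and Cd68 were called lower in each comparison with empty vector. Mcam, an adhesion molecule, was at 3.01 RPKM in OSKM, 2.40 in G3SKM and 2.33 in SKM, against 13.8 RPKM in empty vector. Cd68 belongs to the macrophage list as well, and was at 1.20 RPKM in OSKM, 1.61 in G3SKM and 1.81 in SKM, against 5.05 RPKM in empty vector. Ager, the receptor best known for S100 ligands, was at 0.703 exon RPKM in OSKM, 1.21 in G3SKM and 1.65 in SKM, against 0.453 exon RPKM in empty vector. Tlr4, the receptor linked to S100A8, was at 0.876 exon RPKM in OSKM, 0.931 in G3SKM and 0.531 in SKM, against 2.30 exon RPKM in empty vector. No receptor was called against SKM. The median log2 ratio against empty vector was -0.65 in OSKM, -0.69 in G3SKM and -0.73 in SKM.

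S100a14 is expressed in epithelia and had the largest difference of any member. It was at 2.98 RPKM in OSKM, 4.48 in G3SKM and 2.99 in SKM, against 0.00910 RPKM in empty vector. In reads this was 441 in OSKM, 899 in G3SKM and 319 in SKM, against 2 in empty vector. The gene was therefore nearly silent in the control and present with every factor set. With so few control reads the fold is loose, at 328-fold higher (90.2 to 2716) in OSKM, 492-fold higher (136 to 4069) in G3SKM and 328-fold higher (90.1 to 2720.1) in SKM. Log2 ratios of RPKM + 1 were 1.98, 2.44 and 1.98, and with a pseudocount of 5 RPKM they fell under the rule at 0.67, 0.92 and 0.67. OSKM and SKM were level with each other (ratio 1.00, 0.864 to 1.16), and G3SKM was 1.50-fold higher (1.32 to 1.71) than SKM. Even so, S100a14 at 5.41 to 8.12 exon RPKM with the factors was far below S100a6.

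Many keratinocyte genes, though not all, moved in the same direction as S100a14. Of 15 on the list, 5 of the 6 past the filter were called higher in OSKM, 5 of 6 in G3SKM and 7 of 7 in SKM, against empty vector. Their summed level was 149 exon RPKM in OSKM, 178 in G3SKM and 236 in SKM, against 16.2 exon RPKM in empty vector, where Krt1, Krt15 and Dsg3 were at 0. Krt14, a keratin of basal epidermis, was at 16.5 RPKM in OSKM, 22.8 in G3SKM and 33.8 in SKM, against 0.0656 RPKM in empty vector. Like Krt14, most of the genes past the filter reached it only in the groups with factors, which favours a call of higher. The call of Lor, which is among them, ended in SKM without the GC trend (0.62). The keratinocyte list summed highest in SKM, and S100a14 was highest in G3SKM. Of the list's keratin genes, Krt16 was called lower in OSKM than in SKM (-1.09) and Krt17 lower in G3SKM than in SKM (-1.01). Both calls ended without the GC trend (-0.83 and -0.58). Krt10 and Ivl, also on the list, were not above the control in every group. Krt10 was at 0.492 RPKM in OSKM, 0.570 in G3SKM and 0.527 in SKM, against 0.541 RPKM in empty vector. Ivl, with at most 38 reads, was at 0.0811 RPKM in OSKM, 0.134 in G3SKM and 0.0858 in SKM, against 0.116 RPKM in empty vector. Trp63, a regulator that defines basal keratinocytes, was at 0.145 exon RPKM in OSKM, 0.0246 in G3SKM and 0.0198 in SKM, against 0.00858 exon RPKM in empty vector. The epidermis had been removed before culture, per the labels' protocols, and the part of keratinocytes in the S100a14 level was not tested.

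The genes whose profile over the 4 groups lay closest to that of S100a14, by Euclidean distance of log2(RPKM + 1) centred on each gene's mean over 7466 protein-coding genes, were Nat8f7 (distance 0.188), Aldh3a1 (0.275) and Stmn2 (0.360). Aldh3a1, an aldehyde dehydrogenase, was at 2.90 RPKM in OSKM, 5.03 in G3SKM and 3.97 in SKM, against 0.00992 RPKM in empty vector. For S100a6 the nearest were Gng11 (0.112), Cald1 (0.225) and Tpm4 (0.229). Cald1 and Tpm4 encode the actin-binding proteins caldesmon and a tropomyosin. Tpm4 was at 22.4 RPKM in OSKM, 21.4 in G3SKM and 16.7 in SKM, against 60.4 RPKM in empty vector. Such likeness rests on only 4 values per gene.

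S100a1, known for its action on calcium release and uptake in muscle, was at 3.04 RPKM in OSKM, 3.94 in G3SKM and 4.46 in SKM, against 2.03 RPKM in empty vector. All 3 groups with factors were above the control, and SKM was highest as deposited. The level was 1.50-fold higher (1.36 to 1.66) in OSKM, 1.94-fold higher (1.78 to 2.13) in G3SKM and 2.20-fold higher (1.99 to 2.43) in SKM than in empty vector. Log2 ratios were 0.42, 0.71 and 0.85, all under the rule. For SKM the log2 ratio was 1.10 with a pseudocount of 0.1 RPKM, 1.06 on exon length and 0.58 after the GC trend was removed. Without that trend the log2 ratios of OSKM and G3SKM were 0.32 and 0.63, so SKM was not the highest there.

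S100a16, a widely expressed member, was at 4.94 RPKM in OSKM, 5.66 in G3SKM and 4.76 in SKM, against 3.40 RPKM in empty vector. It was higher than the control in each group by a small margin, 1.46-fold (1.37 to 1.54) in OSKM, 1.67-fold (1.58 to 1.76) in G3SKM and 1.40-fold (1.31 to 1.50) in SKM. None of its log2 ratios passed the rule, and that for SKM was 0.39 as deposited and 0.10 without the GC trend. S100a13, whose protein takes part in the release of Fgf1 and Il1a by a route outside the classical one, was at 1.00 RPKM in OSKM, 1.25 in G3SKM and 1.10 in SKM, against 1.19 RPKM in empty vector. The groups lay close together. The ratio to empty vector was 0.843 (0.770 to 0.922) in OSKM, 1.05 (0.976 to 1.14) in G3SKM and 0.923 (0.837 to 1.02) in SKM, and its direction in G3SKM turned when ratios were centred on all genes (0.04 became -0.13). The cargo genes were low, Fgf1 at 0.0886 to 0.209 exon RPKM and Il1a at 0.264 to 0.554 exon RPKM.

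S100a1 and S100a13 start next to each other on opposite strands, and the bases between the RefSeq starts are shown because the neighbours differed in how they stood against empty vector. The stretch of 104 bases lies at chr3:90514331-90514434 in GRCm38.p6 and is given on the plus strand. Capitals would mark a match to any of the motifs listed above, and there was none.
S100a1 to S100a13: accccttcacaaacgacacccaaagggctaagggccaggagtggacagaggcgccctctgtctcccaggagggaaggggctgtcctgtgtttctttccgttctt
The library kit did not mark the strand of the RNA, so reads from either gene near this shared stretch could not be told apart by strand.

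S100a3, a protein of the hair cuticle, stayed under 1 RPKM, at 0.500 in OSKM, 0.154 in G3SKM and 0.164 in SKM, against 0.351 in empty vector. Its reads numbered 93 in OSKM, 39 in G3SKM and 22 in SKM, against 97 in empty vector. OSKM was the highest group, 3.06-fold higher (1.90 to 5.11) than SKM and 1.43-fold higher (1.06 to 1.91) than empty vector. G3SKM was 2.27-fold lower (1.55 to 3.39) and SKM 2.14-fold lower (1.34 to 3.58) than empty vector. No other member had counting intervals on opposite sides of 1 in different comparisons with empty vector.

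S100a8, which with S100a9 forms calprotectin in neutrophils and monocytes, had 2 reads in OSKM, 4 in G3SKM and 1 in SKM, against 4 in empty vector. No difference was detectable at this depth. S100a9 had 4 reads in OSKM, 21 in G3SKM and 4 in SKM, against 0 in empty vector. In G3SKM that makes 7.66-fold more per mega-read with empty vector set to a floor of 3 reads. Without the floor, the lower end of the counting interval was 5.70-fold. S100a8 and S100a9 stayed at or under 0.396 exon RPKM in every group. Of 10 neutrophil genes listed, at most 1 passed the filter in any comparison. Those genes summed to 1.37 exon RPKM in OSKM, 3.89 in G3SKM and 8.28 in SKM, against 5.19 exon RPKM in empty vector, and 1 to 5 of them were at 0 or not listed in each group. Lcn2 and Mmp9 held most of each sum. Lcn2 was at 0.395 exon RPKM in OSKM, 2.52 in G3SKM and 5.66 in SKM, against 2.20 in empty vector. Mmp9 was at 0.716, 1.08 and 2.58 exon RPKM in the same order, against 2.68 in empty vector. Lcn2 was called lower in OSKM than in SKM, at -1.24 as deposited and -1.06 without the GC trend. Mpo, the myeloperoxidase of neutrophil granules, was at most 0.0461 exon RPKM in any group. The part of neutrophils in the S100a8 and S100a9 reads was not tested.

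The other S100 genes in the tables were near silent, and none of the 5 passed the filter. S100a7a, known from epidermal keratinocytes, had 38 reads in OSKM, 134 in G3SKM and 57 in SKM, against 2 in empty vector. Like S100a14 it was above the control in each group with factors. The ratio of S100a7a in G3SKM to SKM was 1.25 (0.911 to 1.74), so those groups were not apart by counting error. Its deposited level was at most 0.689 RPKM. S100b, a gene of glia, was at 1.09 exon RPKM in OSKM, 0.796 in G3SKM and 0.274 in SKM, against 0.782 exon RPKM in empty vector. S100a5 and S100g stayed at or under 0.390 exon RPKM in every group.

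Along chromosome 3, genes of either direction lay close together. The block with S100a1, S100a13, S100a14, S100a16, S100a3, S100a4, S100a5, S100a6, S100a7a, S100a8 and S100a9 holds 11 S100 genes, 8 of them members, with 9 on the plus strand and S100a1 and S100a9 on the minus strand. Within it S100a14 was higher than in empty vector and S100a6 lower. Between them lay S100a16 and S100a4, which did not pass the rule, and S100a3 and S100a5, which were under the filter. A separate block holds S100a11 and S100a10, both lower than in empty vector in all 3 groups with factors.

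**Figure D4:**
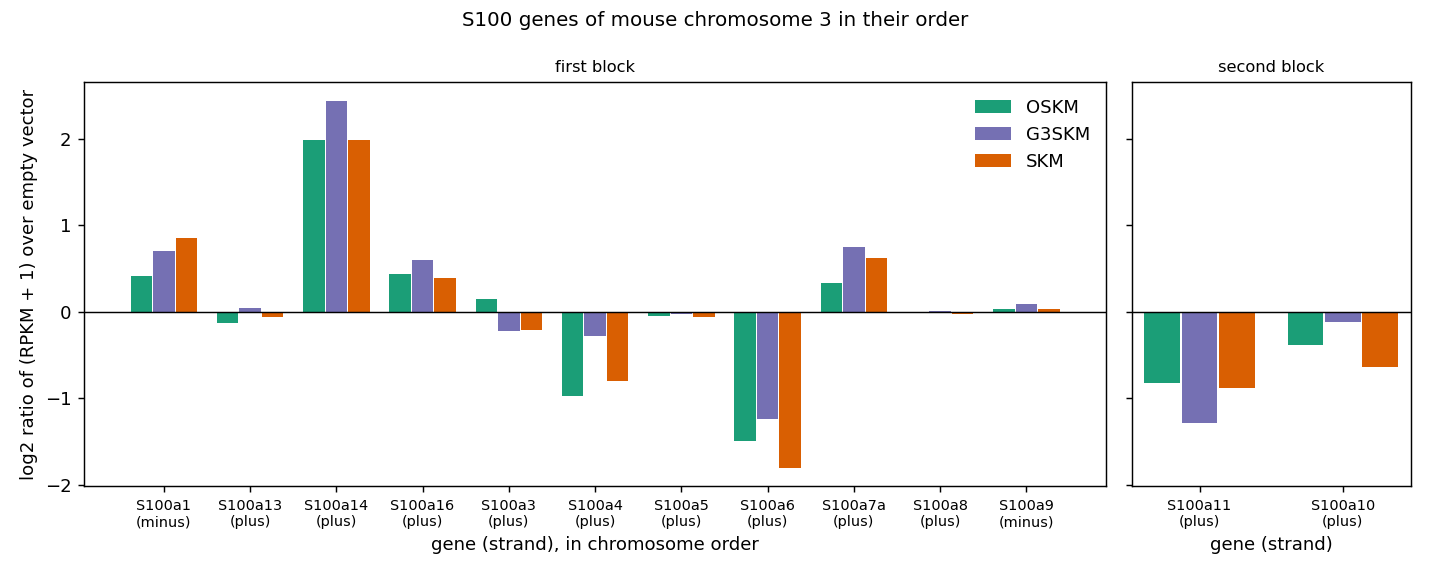
Log2 ratio of RPKM + 1 in OSKM, G3SKM and SKM over empty vector for the S100 genes of chromosome 3, in their order along each block, with the strand under each name and genes under the filter included; 1 value per bar. S100a14 reaches 2.44, S100a6 reaches -1.81 a few genes away, and S100a11 and S100a10 of the other block are below 0 in all 3.

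Few of the other calcium sensors with EF hands were called. Of 20 genes, 15 passed the filter in OSKM against empty vector and 16 in the other comparisons. In OSKM against empty vector Capn2, a calpain subunit, was called lower and none higher. In G3SKM Calm4, a calmodulin-like gene known from epidermis, was called higher and Calu and Capn2 lower. In SKM Calm4 was called higher, and Calu, Calm2 and Capn2 lower, of which Calm2 was under the rule without the GC trend (-0.70). Calm4 had 67 reads in OSKM, 466 in G3SKM and 94 in SKM, against 0 in empty vector. With the control set to the floor, that is 33.2-fold higher in OSKM, 170.03-fold in G3SKM and 64.4-fold in SKM. These folds leave out the counting error of the Calm4 reads. Like S100a14 it was highest in G3SKM. Against SKM, Calm4 was the only gene of the list called, higher in G3SKM at 5.02 RPKM, against 1.90 RPKM in SKM. That log2 ratio was 1.05 as deposited and 1.04 without the GC trend. The list's median log2 ratio was -0.07 in OSKM, -0.38 in G3SKM and -0.02 in SKM against empty vector.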

How the data were processed

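RNA of the 4 groups was sequenced after cDNA amplification, per the labels' protocols. The authors' deposited values are RPKM, with TopHat 1.3.0 and build mm9 named in the submitters' processing notes. The sources used here do not say how reads were counted, on which annotation, or how replicates were merged. Each deposited table also holds a log2 ratio of its RPKM columns, which was recomputed here. A value of 0.001 was read as 0.

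The SKM column did not differ between the 3 tables (largest difference 0). RPKM multiplied by gene length fell on whole reads, which gave depths and reads for all 10 members. For 5 members the length was the GENCODE M21 span, and for 5 it was the shortest whole length that gave whole reads in all 4 groups (tolerance 0.003). Exon RPKM used GENCODE M21 basic exons, which belong to a later build than mm9 and may differ from the authors' annotation. Symbols matched 91% of listed genes. Promoters came from RefSeq, matched by symbol for 8 members (12 windows).

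No test was possible with 1 value per group. Members and lists were chosen with earlier results of these data known. Named genes were the members, other S100 genes reaching 1 RPKM on either scale, S100a9, up to 3 higher and 3 lower genes per list, and the 3 nearest profiles of the 2 members with the widest range. Partners of members and other list genes outside this rule were named after their values were seen. They were the factors, Anxa2, Ager, Tlr4, Fgf1, Il1a, S100a5, S100g, Vim, Dcn, Trp63, Ivl, Krt10, Mmp9, Mpo and keratinocyte genes at 0. The procedure was tested on simulated data. Scripts ran in Python 3.11.15 with SciPy 1.17.1, pandas 2.3.3, numpy 2.4.6 and matplotlib 3.10.9. Intervals (95%) and the floor of 3 reads cover counting error only.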

Additional observations from a re-analysis of the deposited data

How the results depend on the processing

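Alternatives were pseudocounts of 0.1 and 5 RPKM, no filter and a filter of 5 RPKM, centring on the median, exon length, removal of the GC trend in 20 bins, and the last 2 together. No log2 ratio of a member past the rule of size changed sign. Members past the filter had 302 log2 ratios under alternatives, whether past the rule as reported or under it. Of these, 293 kept their side of the rule, 6 moved past it and 3 fell short of it. Those that moved past it, all against empty vector, were S100a1 at 1.10 and 1.06 and S100a11 at -1.03 in SKM. In OSKM they were S100a11 at -1.01, S100a4 at -1.15 when centred, and S100a4 just past the rule on exon length without the GC trend. The 3 that fell short, all past the rule as reported, were those of S100a14 with a pseudocount of 5 RPKM. Called members numbered 1 with a pseudocount of 5 RPKM or a filter of 5 RPKM in OSKM and in SKM against empty vector, and 4 when OSKM against empty vector was centred. Counts over all genes moved more and are given for OSKM, G3SKM and SKM against empty vector and then for OSKM and G3SKM against SKM. They were 912, 1112, 1515, 427 and 564 as reported, 1778, 2085, 2749, 1042 and 1095 with a pseudocount of 0.1 RPKM, and 275, 421, 468, 94 and 248 with 5 RPKM. Exon length put 15066 to 15253 genes past the filter, beside 10195 to 10292 as reported. On exon length the counts that moved by over 1.5 times were 2218, 2465, 3041 and, for OSKM against SKM, 948. With exon length and the GC trend removed they were 2221 in OSKM and 2472 in G3SKM against empty vector. With the GC trend removed they were 970 in SKM against empty vector, 199 in OSKM against SKM and 243 in G3SKM against SKM. The filter of 5 RPKM gave 583 of 4390 genes compared in OSKM against empty vector, beside 912 of 10207 as reported. In OSKM against SKM it gave 284 of 4470, beside 427 of 10211. Centring turned the split of higher and lower genes against empty vector to 292 and 610 in OSKM (489 and 423 as reported), 467 and 571 in G3SKM (727 and 385) and 608 and 843 in SKM (905 and 610). No paired analysis was possible because each group has 1 value. Depth limits S100a8 and the control level of S100a14, which rest on at most 4 reads.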

Other observations

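The genes around the S100 blocks of chromosome 3 were counted as well. Of the 12 genes of other kinds next to the ends of both blocks, 3 passed the filter in OSKM against empty vector, 4 in G3SKM and 5 in SKM, and 5 in each comparison with SKM. None was called in OSKM or G3SKM against empty vector. Lor and Tchh, which encode loricrin and trichohyalin of the cornified layer and the hair root sheath, were called higher in SKM against empty vector (log2 ratios of 1.07 and 1.73). The call of Lor ended without the GC trend (0.62). Tchh was at 0.470 RPKM in OSKM and 1.15 RPKM in G3SKM, against 2.90 RPKM in SKM, and the call in OSKM against SKM was lower (-1.41). The genes that fuse an S100 domain to a long repeat, of which 6 of 7 were listed, summed to 1.72 exon RPKM in OSKM, 3.24 in G3SKM and 6.13 in SKM, against 0.207 exon RPKM in empty vector, where 5 of the 6 were at 0. They were thus highest in SKM, whereas S100a14 was highest in G3SKM. S100a7a in G3SKM and SKM was not apart by counting error.

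S100a11-ps, a processed pseudogene on chromosome 12 that resembles S100a11, had 2 reads in OSKM, 1 in G3SKM and 0 in SKM, against 11 in empty vector. S100a11 itself had 17285 reads in OSKM, 16934 in G3SKM and 12068 in SKM, against 46220 in empty vector, so the copy held a small part of the reads of this pair in every group.

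The length behind the deposited RPKM of S100a3 was 2487 bases and that of S100a6 1520 bases, while GENCODE M21 spans 42124 and 11299 bases for these genes.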
